A study of Homo sapiens with 8 samples.

Results

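The genes described here encode the first intracellular relay of the T-cell receptor (TCR): the kinases LCK, FYN and ZAP70, the adaptors LAT and LCP2, and the dampeners SLA, SLA2, PTPN22 and UBASH3A. The platform annotation lists 26 probe sets under one of these 9 symbols and no other gene, out of 54675 probe sets in all, and every one of the 26 was taken. Of these, 24 read above the array median in all 8 arrays and entered the test. The other 2, LCP2 244578_at and PTPN22 208011_at, lay below it in all 8 arrays and are given as values only.

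When the receptor is engaged, LCK and FYN, kinases of the Src family, phosphorylate the signalling motifs of the CD3 and zeta chains, and ZAP70 docks there and is activated in turn. ZAP70 phosphorylates LAT and LCP2 (the protein SLP-76), which together form the platform from which calcium, Ras and cytoskeletal signals start. SLA and SLA2 (the Src-like adaptors SLAP and SLAP-2) recruit ubiquitin ligases that lower the amount of receptor and kinase in thymocytes, PTPN22 is a phosphatase that acts on LCK and ZAP70, and UBASH3A binds ubiquitin and restrains the same step.

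All 8 arrays were hybridised with total RNA of the cell line ALL-SIL, which was established from a T-cell acute lymphoblastic leukemia and has TLX1, a homeobox gene, switched on, in 4 groups of 2 arrays. In the TCR experiment all cells carried a lentiviral TCRα/β-GFP vector built from the receptor sequence of the Jurkat line. One group had no co-culture and the other was grown for 48 h over mouse OP9-DL1 stroma, which presents a Notch ligand, which the labels call TCR activation. This comparison therefore does not separate the stroma, the ligand and the receptor signal. In the hairpin experiment all cells were transduced with a pLKO.1-type vector and selected with puromycin, and carried either TLX shRNA (sh-TLX) (for TLX1 the labels name 1 hairpin clone), or the shRNA-pLKO.1-puro control. No group without any vector was analysed here. Whether the 2 arrays of a group hold separate cultures is not said in the labels, and the p-values therefore reflect array-to-array spread that may be technical.

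The arrays of the experiments stood apart: across all probe sets they correlated at 0.942 to 0.951 between experiments, against 0.997 to 0.998 between arrays of the same group in the TCR experiment and 0.986 to 0.993 in the hairpin experiment. Between groups the values were 0.993 to 0.995 for the TCR experiment and 0.986 to 0.994 for control against TLX1 hairpin arrays, so the hairpin groups were no more alike within than between. The gap between the 3′ and 5′ control probe sets of actin, a gauge of RNA breakdown, was 2.30 to 2.71 in the TCR experiment and 0.57 to 0.83 in the hairpin experiment (log2). All 12 T-lineage markers (CD3D, CD3E, CD3G, CD247, CD7, CD2, CD5, CD1A, CD1B, CD4, CD8A and TRBC1) read above the array median in every array. Of 13 granulocyte and myeloid markers on the arrays, 8 were tested, and 5 passed as higher in the co-cultured group and 0 as lower. The list's mean value was 6.26 to 6.27 there against 5.05 to 5.07 without co-culture. MPO of the same list read lower after co-culture, at 7.82 and 8.13 against 8.69 and 8.69. The 16 stromal markers, if their human probes bind mouse RNA at all, averaged 5.95 to 6.24 without co-culture and 5.90 to 6.21 after it, with 6 of them below the array median in all arrays. Probe sets of chromosome Y genes fell in the co-cultured group in 11 of 25 cases, so a difference between the cells of the 2 cultures cannot be told apart from the co-culture. TLX1 itself read 8.66 and 8.27 with the control hairpin and 7.98 and 7.88 with the TLX1 hairpin, a difference of -0.53 (SE 0.15) that did not pass (limma adjusted p = 0.401).

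The kinase LCK has more than one start region, and both of its probe sets stood higher in both TLX1 hairpin arrays than in both control arrays. Neither passed (limma adjusted p = 0.519 and 0.641), and 4.44% of all genes with 2 tested probe sets had both higher in this way. The sequences before the LCK starts are shown as 1 example. They are the 250 bases upstream of the 2 LCK starts in RefSeq (GRCh38.p14, plus strand), at chr1:32251015-32251264 and chr1:32273871-32274120. Capitals mark matches to TGTGGT, letters typical of RUNX factors, and to AGGAAG, letters typical of ETS factors, on either strand.
LCK upstream start: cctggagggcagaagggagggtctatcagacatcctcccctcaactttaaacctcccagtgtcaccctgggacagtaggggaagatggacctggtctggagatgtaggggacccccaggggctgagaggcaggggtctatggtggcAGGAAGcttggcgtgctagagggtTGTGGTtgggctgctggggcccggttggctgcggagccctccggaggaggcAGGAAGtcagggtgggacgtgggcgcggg
LCK downstream start: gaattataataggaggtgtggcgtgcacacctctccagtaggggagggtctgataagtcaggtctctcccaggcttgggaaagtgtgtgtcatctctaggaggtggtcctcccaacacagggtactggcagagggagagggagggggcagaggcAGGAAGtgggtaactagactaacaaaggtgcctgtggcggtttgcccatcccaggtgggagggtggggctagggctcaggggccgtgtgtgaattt
The first window held 1 match to TGTGGT and 2 to AGGAAG, and the second held 0 and 1. LAT also has more than one window. Both of its probe sets likewise stood higher with the TLX1 hairpin without overlap, and neither passed. The LAT windows held 0 matches to TGTGGT or AGGAAG. Over 35114 such windows in RefSeq, 11.0% held TGTGGT and 28.7% held AGGAAG. The 6 member genes found there have 13 windows, of which 2 (15.4%) held TGTGGT and 5 (38.5%) held AGGAAG. The E-box letters CANNTG, also searched but not marked, were in 7 (53.8%) of these windows and in 61.8% of all. A match is a description of letters and not of a bound site.

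**Figure D1:**
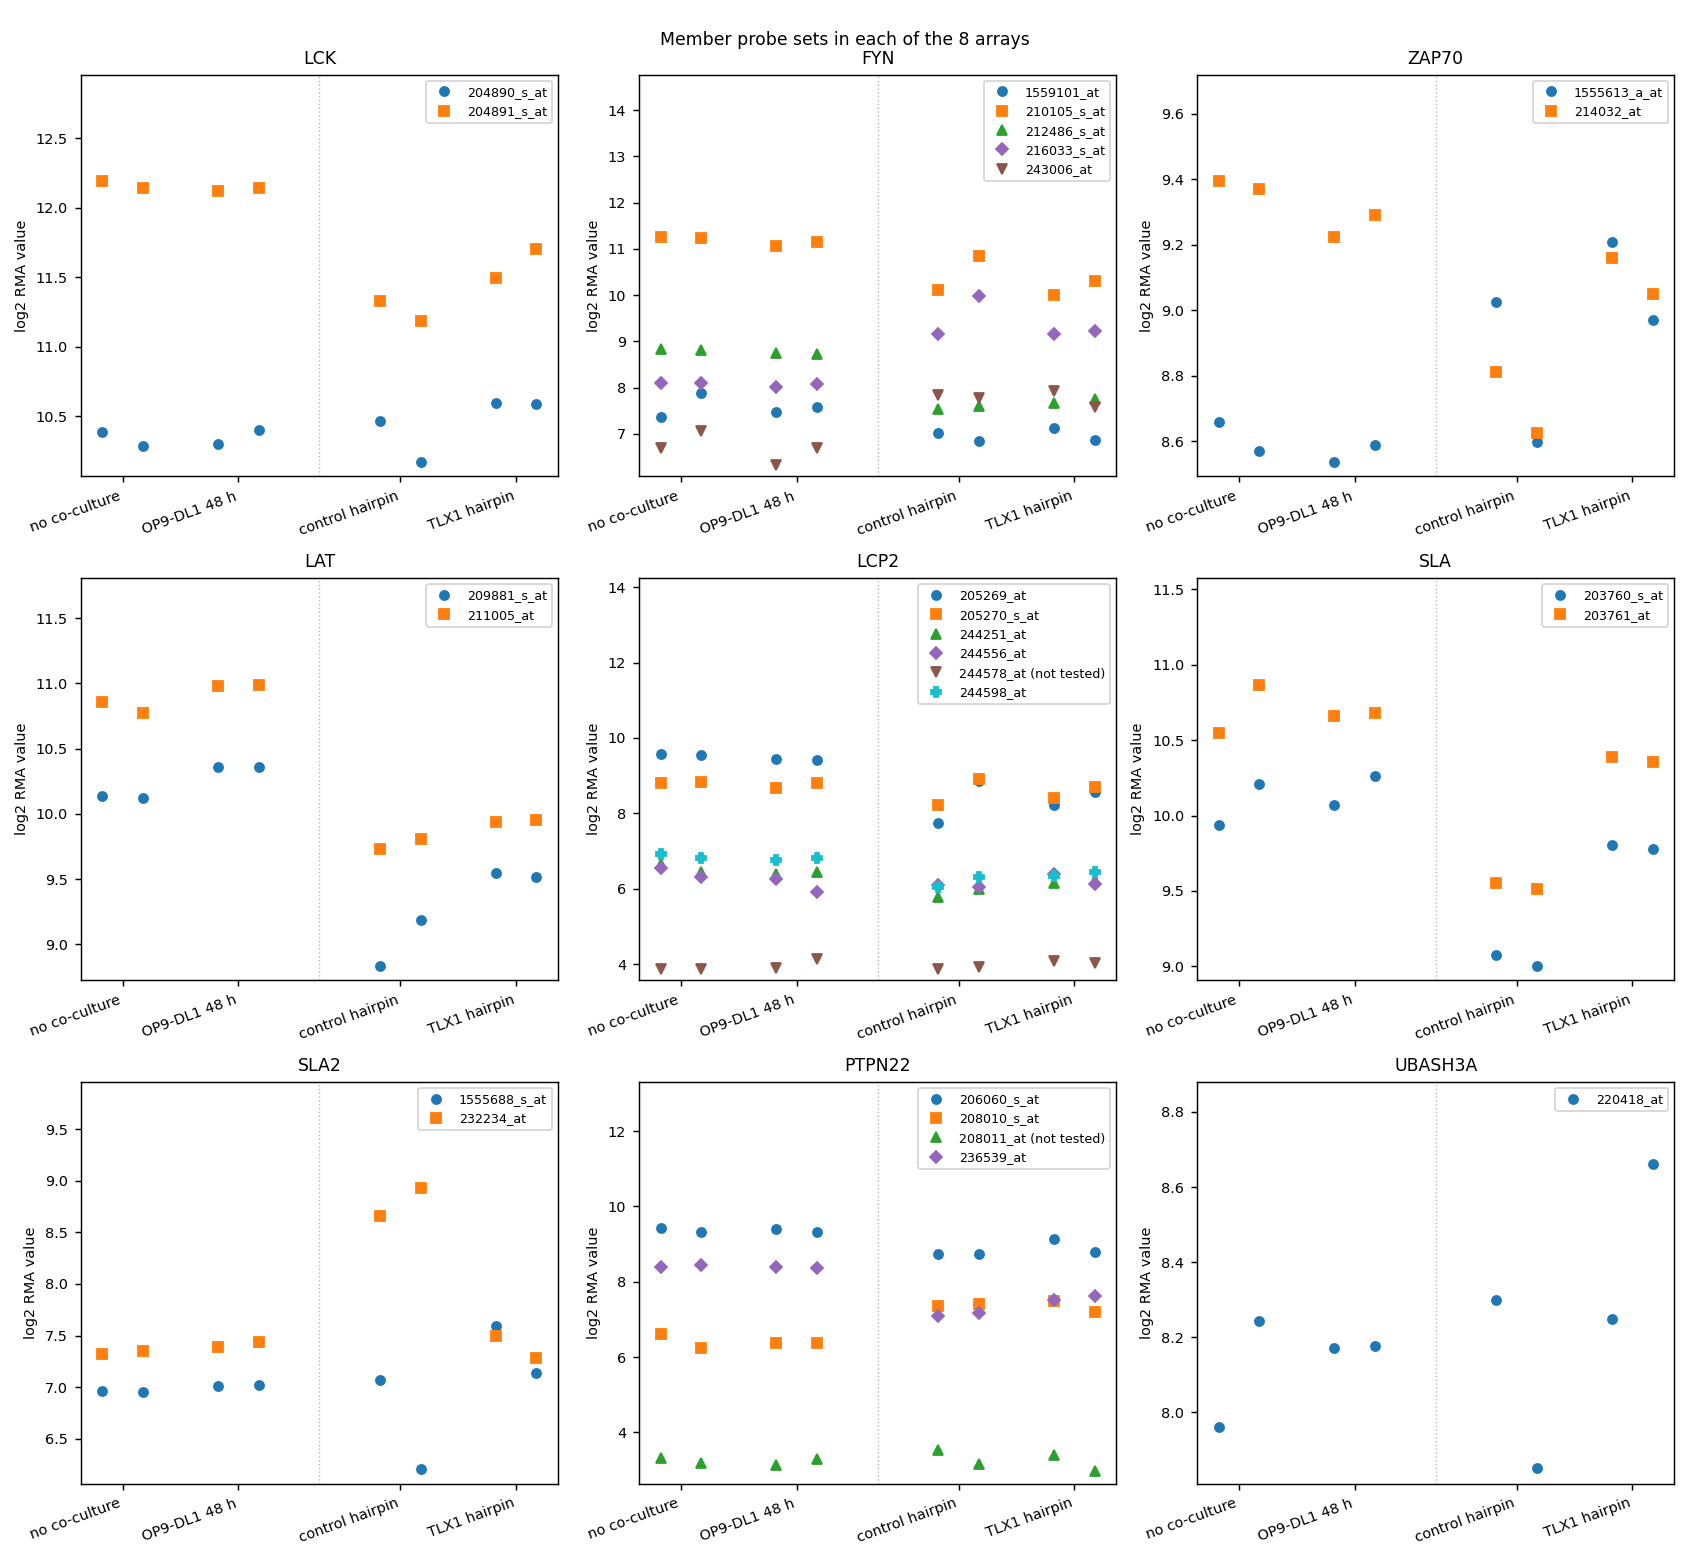
Each panel plots one gene, with the log2 RMA value on the y axis and the 8 arrays by group on the x axis; symbols are probe sets, each point is 1 array, and the dotted line parts the experiments. SLA 203761_at reads 9.51 to 9.55 with the control hairpin and 10.35 to 10.39 with the TLX1 hairpin, while SLA2 232234_at reads 8.66 and 8.93 against 7.50 and 7.29.

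The co-culture comparison asked whether placing TCR-expressing leukemia cells on the stroma changed the transcripts of their own proximal signalling machinery. Of the 24 tested probe sets, 0 passed an adjusted p of 0.05 (limma, Benjamini-Hochberg over 30816 probe sets), where 0.490% of all tested probe sets passed. At an unadjusted p under 0.05 the members again had 0, against 6.71% of all probe sets, and 0 passed when the 2 TCR groups were fitted alone, against 1.41% of all. The changes lay between -0.36 and 0.23 on the log2 scale, and 21 of the 24 were smaller than 0.2 in either direction. By sign 7 were higher and 17 lower, with a median change of -0.05 against 0.01 over all tested probe sets, of which 51.4% were higher. In such bulk RNA, fewer cells of a type and less RNA per cell cannot be told apart.

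LCK 204891_s_at read 12.19 and 12.14 without co-culture and 12.12 and 12.14 after it, and LCK 204890_s_at read 10.39 and 10.29 against 10.30 and 10.41. The groups overlapped in both. The change was -0.04 (95% interval -0.31 to 0.24) for the first and 0.02 (-0.29 to 0.32) for the second, so a shift of about 0.3 could have gone unseen.

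ZAP70, the kinase that follows LCK, read 9.39 and 9.37 against 9.22 and 9.29 at 214032_at. Both co-cultured arrays lay below both others there, by a mean of -0.12 (interval -0.39 to 0.15; limma adjusted p = 0.989). At its other probe set, 1555613_a_at, the groups overlapped and the change was -0.05. All 5 FYN probe sets had a negative change, between -0.36 and -0.05, and in 3 of them the arrays did not overlap. FYN 243006_at had, by a narrow margin over LCP2 244556_at, the largest change of any member in this comparison: it read 6.68 and 7.06 without co-culture and 6.32 and 6.69 after it. Its groups overlapped, and the difference of -0.36 (interval -0.80 to 0.08) did not pass (limma adjusted p = 0.851).

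LAT and SLA2 were the 2 genes whose probe sets were all higher without overlap between the groups, 2 of 9 against 23.0% of all tested genes and 2 of the 5 with 2 tested probe sets against 18.4% of all such genes. No member gene had all tested probe sets lower without overlap, against 15.5% of all tested genes. LAT 209881_s_at read 10.13 and 10.12 without co-culture and 10.36 and 10.36 after it, and LAT 211005_at read 10.85 and 10.77 against 10.98 and 10.99. The replicates of each group were close together in both probe sets, and the co-cultured arrays were the higher ones. The changes were 0.23 (interval -0.09 to 0.54) and 0.17 (-0.08 to 0.41), neither past the threshold (limma adjusted p = 0.915 and 0.931, and 0.149 and 0.257 when only the TCR groups were fitted).

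LCP2, the partner of LAT in the signalling platform, was lower by sign at its 5 tested probe sets, by -0.36 to -0.09. LCP2 205269_at read 9.57 and 9.55 against 9.43 and 9.41, without overlap, a difference of -0.14 (interval -0.86 to 0.59). That interval is wide because the fit shares its spread with the hairpin arrays, where this probe set varied most among the members. LCP2 244556_at differed by -0.36 (interval -0.74 to 0.02) and had the smallest adjusted p of the members here, at 0.771 by limma. The dim LCP2 244578_at read 3.88, 3.87, 3.89 and 4.14 in the same arrays and was not tested.

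The dampeners varied little between the cultures. SLA 203761_at read 10.55 and 10.87 without co-culture and 10.66 and 10.68 after it, and the groups overlapped. SLA2 232234_at read 7.33 and 7.35 against 7.39 and 7.43, and SLA2 1555688_s_at read 6.96 and 6.95 against 7.01 and 7.03. Both SLA2 probe sets were thus slightly higher in both co-cultured arrays, by 0.08 and 0.06, with intervals of -0.23 to 0.39 and -0.56 to 0.68. PTPN22 differed by -0.05 to -0.02 over its 3 tested probe sets, and UBASH3A 220418_at by 0.07 (interval -0.39 to 0.53). The groups of arrays did not overlap in 13 of the 24 member probe sets, 4 higher and 9 lower, and in 52.3% of all tested probe sets (27.1% higher and 25.2% lower), so the members' share was near that background.

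**Figure D2:**
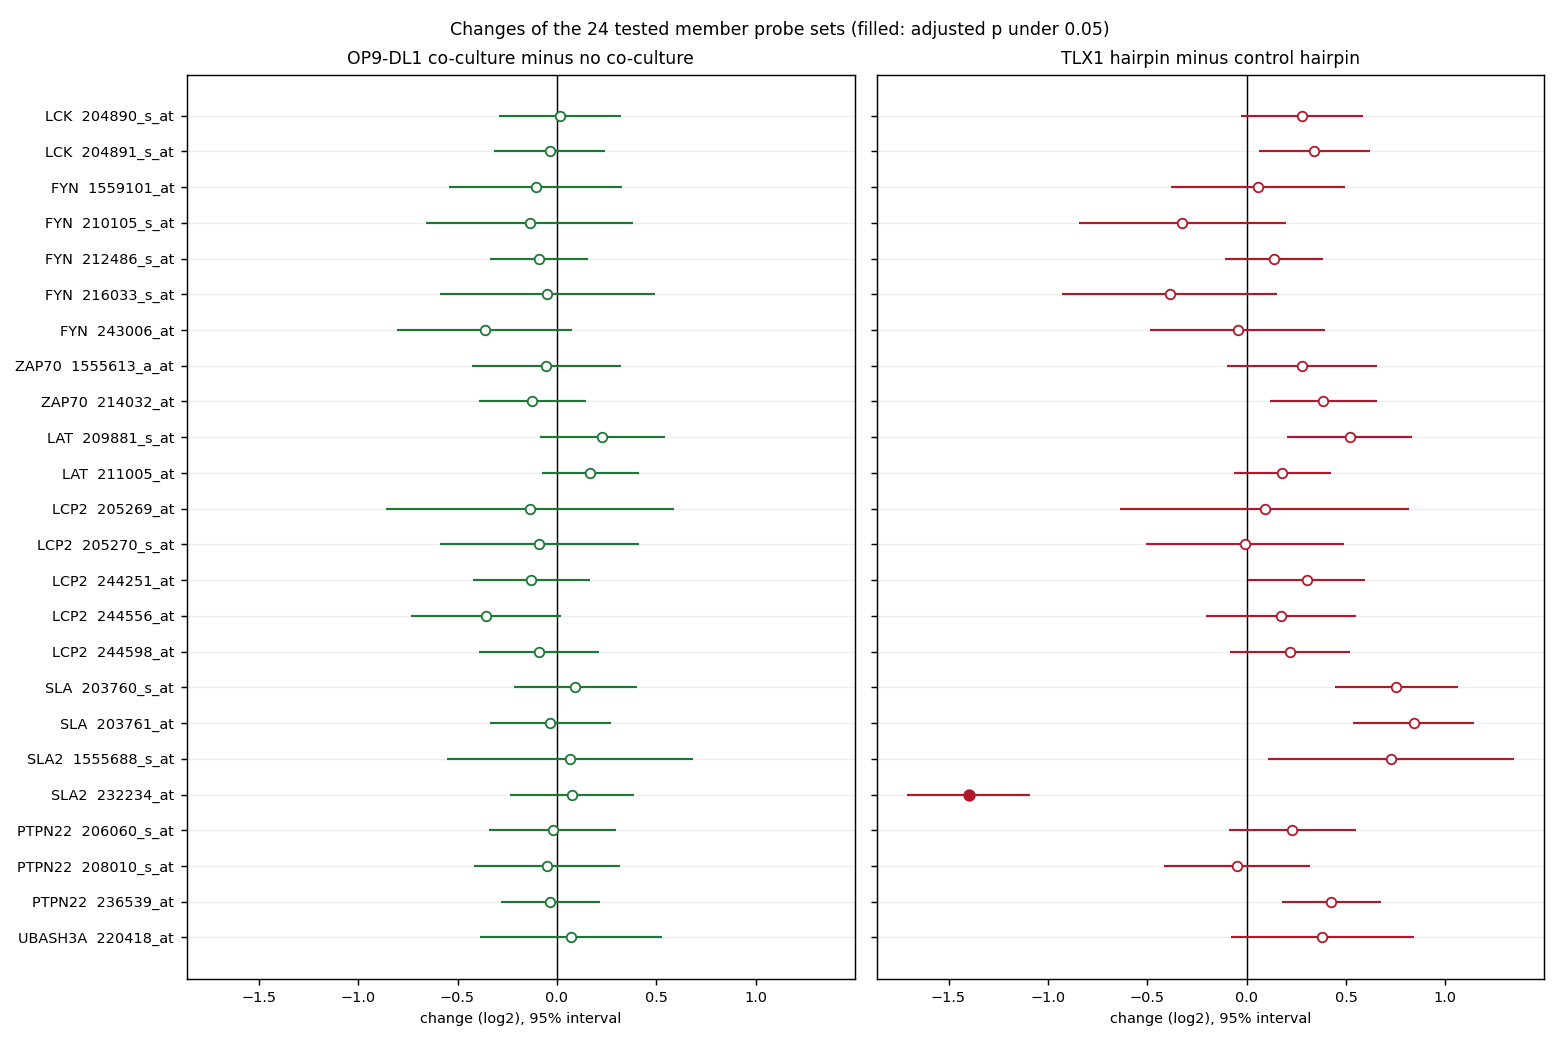
The x axis gives the change of each tested member probe set on the log2 scale with its 95% interval from the limma fit of all 4 groups (2 arrays a group), for the co-culture on the left and the TLX1 hairpin on the right; a filled point has an adjusted p under 0.05. Only SLA2 232234_at, at -1.40 with the TLX1 hairpin, is filled, and SLA2 1555688_s_at lies on the other side of 0.

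The hairpin comparison asked what changed in these genes when TLX1 was targeted. SLA2 232234_at fell, and it was the 1 member probe set of 24 that passed (limma adjusted p under 0.05), where 0.0649% of all tested probe sets passed and 0.0162% passed as lower. It read 8.66 and 8.93 with the control hairpin and 7.50 and 7.29 with the TLX1 hairpin, a 2.64-fold lower signal (log2 change -1.40, interval -1.71 to -1.09, limma adjusted p = 0.0224). Both control hairpin arrays stood more than a log2 unit above both TLX1 hairpin arrays. The 4 arrays of the TCR experiment read 7.33 to 7.43, beside the TLX1 hairpin arrays and below the control hairpin arrays.

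The other SLA2 probe set went the opposite way. SLA2 1555688_s_at read 7.07 and 6.20 with the control hairpin and 7.59 and 7.14 with the TLX1 hairpin, a difference of 0.73 (interval 0.11 to 1.35) that did not pass (limma adjusted p = 0.530). Both TLX1 hairpin arrays lay above both control arrays, but the nearest pair was close, at 7.14 and 7.07, and the control arrays differed from each other by more than the group means did. The mean of both probe sets differed by -0.34 (limma adjusted p = 0.570 in a fit of 1 mean value per gene), so the direction for the SLA2 gene depends on the probe set. Which transcripts each probe set reads was not tested.

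The call for SLA2 232234_at rests on the spread shared with the TCR arrays. Fitted with the 2 hairpin groups alone, the change was the same but the adjusted p was 0.882, and 0% of all probe sets passed. The call was kept under 2 of the 8 left-out arrays, the control hairpin arrays, and was lost without any one of the other 6, where the adjusted p was 0.129 without either array lacking co-culture, 0.135 without either co-cultured array, 0.135 without shRNA_TLX1 replicate 1 and 0.162 without its replicate 2. The change itself stayed between -1.53 and -1.27 in all 8. With the replicate block the adjusted p was 0.0909. The hairpin change differed from the co-culture change (difference of the changes 1.48, interval 1.04 to 1.91, limma adjusted p = 0.0265). Of all tested probe sets 0.334% passed this test. Because the co-culture change was only 0.08, the test mostly repeats the hairpin change with the same shared spread and is no separate evidence. For the other 23 member probe sets the difference of the changes did not pass.

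SLA, the close relative of SLA2, had the largest positive differences of the members, and its probe sets agreed. SLA 203761_at read 9.55 and 9.51 with the control hairpin and 10.39 and 10.35 with the TLX1 hairpin. SLA 203760_s_at read 9.07 and 9.002 against 9.81 and 9.78. In both probe sets the replicates were close together and the groups did not overlap. The differences were 0.84 (interval 0.54 to 1.14) and 0.75 (0.44 to 1.06), with unadjusted p-values of 2.3e-04 and 5.4e-04 by limma, and neither passed over all probe sets (limma adjusted p = 0.134 and 0.175). The TCR experiment read 10.55 to 10.87 and 9.93 to 10.26 at these probe sets, above all 4 hairpin arrays.

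**Figure D3:**
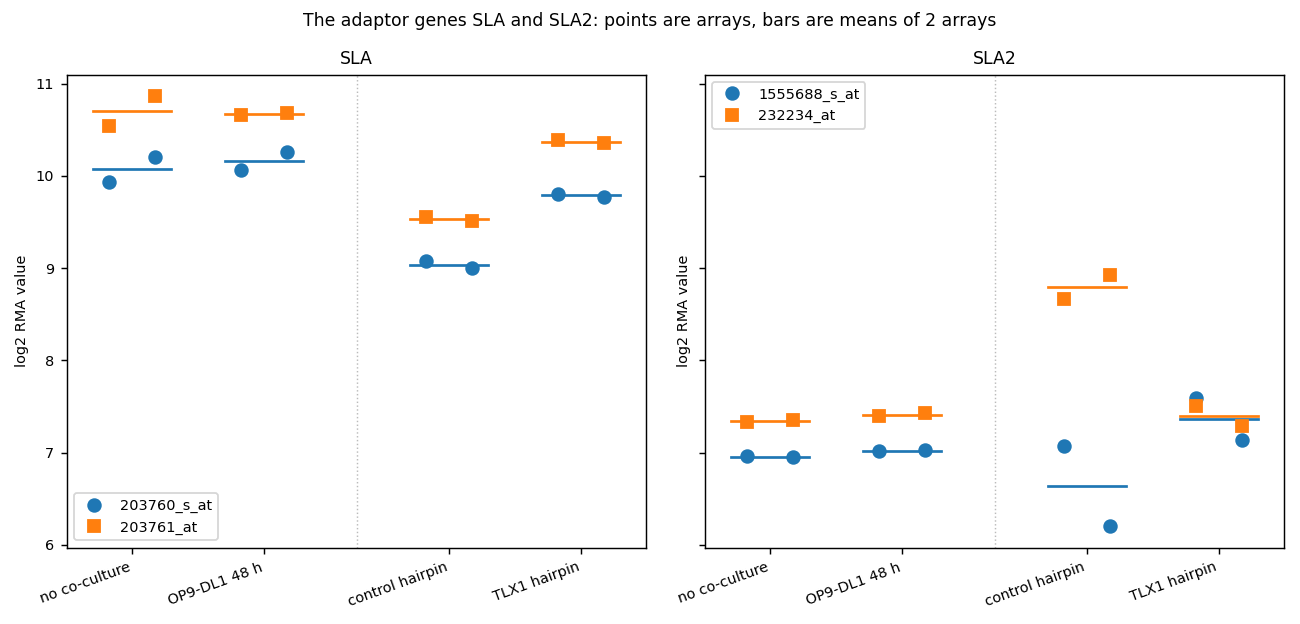
The y axis gives the log2 RMA value of SLA (left) and SLA2 (right) in each array, with the groups on the x axis; points are arrays, bars are means of 2 arrays and symbols are probe sets. In SLA both probe sets sit lowest in the control hairpin arrays, while in SLA2 232234_at sits highest there, at 8.66 and 8.93, and 1555688_s_at reads 7.07 and 6.20.

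LAT stood higher with the TLX1 hairpin at both probe sets. LAT 209881_s_at read 8.83 and 9.19 with the control hairpin and 9.54 and 9.51 with the TLX1 hairpin, a difference of 0.52 (interval 0.20 to 0.83; limma adjusted p = 0.374). LAT 211005_at read 9.73 and 9.80 against 9.94 and 9.96, a difference of 0.18 (-0.07 to 0.42). The groups did not overlap in either probe set, and the sizes differed, with neither past the threshold.

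LCK stood higher as well. LCK 204891_s_at read 11.33 and 11.19 against 11.50 and 11.70, and LCK 204890_s_at read 10.47 and 10.17 against 10.60 and 10.59. The differences were 0.34 (interval 0.06 to 0.62; limma adjusted p = 0.519) and 0.28 (-0.03 to 0.58; limma adjusted p = 0.641), with both TLX1 hairpin arrays above both control arrays.

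ZAP70 214032_at read 8.81 and 8.63 with the control hairpin and 9.16 and 9.05 with the TLX1 hairpin, a difference of 0.39 (interval 0.12 to 0.66; limma adjusted p = 0.452). The groups did not overlap there. At ZAP70 1555613_a_at the readings were 9.02 and 8.60 against 9.21 and 8.97, which overlap, with a difference of 0.28. LCK, LAT and SLA were the 3 of 9 genes whose tested probe sets all stood higher without overlap between the groups, against 7.91% of all tested genes. By the same rule 0 had all tested probe sets lower without overlap, against 10.1%. Among genes with 2 tested probe sets, both stood higher without overlap in 3 of 5 members and in 4.44% of all.

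FYN, the other Src-family kinase, gave no common direction. Its 5 probe sets differed by -0.39 to 0.14, and 2 were higher and 3 lower by sign. FYN 216033_s_at read 9.16 and 9.99 under the control hairpin and 9.16 and 9.22 under the TLX1 hairpin, so that 1 control array stood above the other 3. FYN 210105_s_at showed the same array apart, at 10.11 and 10.84 against 10.01 and 10.30. Without shRNA_control replicate 1 these probe sets differed by -0.80 and -0.69, and without shRNA_control replicate 2 by 0.02 and 0.04. The size of the difference therefore depended on which control array was kept.

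At LCP2 the control arrays enclosed the TLX1 hairpin arrays in 2 of the 5 tested probe sets, 205269_at and 205270_s_at. LCP2 205269_at read 7.75 and 8.87 with the control hairpin and 8.22 and 8.57 with the TLX1 hairpin, and the difference was 0.09 (interval -0.64 to 0.82). It was -0.47 without shRNA_control replicate 1 and 0.65 without its replicate 2, and it did not pass with any 1 array left out (lowest limma adjusted p = 0.101). The other 3 kept a positive sign whichever array was left out. The other tested LCP2 probe sets differed by -0.01 to 0.30, and LCP2 244251_at, with 5.79 and 5.99 against 6.15 and 6.23, was the one of them with the largest difference (0.30, limma adjusted p = 0.598). The untested LCP2 244578_at read 3.87 and 3.93 against 4.08 and 4.03.

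Among the remaining dampeners, PTPN22 236539_at read 7.10 and 7.18 under the control and 7.52 and 7.61 under the TLX1 hairpin, a difference of 0.43 (interval 0.18 to 0.68; limma adjusted p = 0.358). The groups did not overlap. PTPN22 206060_s_at differed by 0.23 in the same direction, with 8.74 and 8.74 against 9.14 and 8.80, whereas PTPN22 208010_s_at read 7.35 and 7.41 against 7.48 and 7.19 and overlapped (difference -0.05). The untested PTPN22 208011_at read 3.54 and 3.15 against 3.41 and 2.97. UBASH3A has 1 probe set, which read 8.30 and 7.85 against 8.25 and 8.66, an overlap with a difference of 0.38 (interval -0.08 to 0.84).

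Counted together, 18 of the 24 member probe sets were higher by sign with the TLX1 hairpin and 6 lower, against 50.4% higher among all tested probe sets, with a median difference of 0.22 against 0.00 over all. The groups did not overlap in 15, of which 14 were higher and 1 lower, against 28.9% of all tested probe sets (14.2% higher and 14.6% lower). Before adjustment 8 had p under 0.05 as higher and 1 as lower, against 3.81% and 4.41% of all (8.22% together). Probe sets of one gene can read the same transcripts, which was not tested. They cannot be taken as 24 independent readings, and they share the same 4 arrays. The count of members past the adjusted threshold depended on single arrays. It rose without shRNA_control replicate 1, where the count over all tested probe sets rose too. That fit rests on 1 control hairpin array, so its calls are not listed here. Leaving out any array outside the control hairpin group lost the member call. The T-lineage markers averaged 9.46 to 9.49 with the control hairpin and 9.38 with the TLX1 hairpin, and 0 of the 12 were called. That mean covers moves in both directions, shown here by markers chosen after their values were seen. CD1A read 9.04 and 8.83 with the control hairpin and 8.11 and 7.84 with the TLX1 hairpin, and CD2 8.21 and 8.81 against 7.31 and 7.75. CD247 read 11.10 and 10.47 against 11.50 and 11.29, and CD3G 9.15 and 8.48 against 9.53 and 9.27. The actin gap was 0.57 and 0.81 with the control hairpin and 0.66 and 0.83 with the TLX1 hairpin, and its part in these differences was not tested.

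Levels also stood apart between the experiments at many member probe sets, and for FYN and PTPN22 in both directions. Of the 24, 14 read higher in all 4 TCR experiment arrays than in all 4 hairpin arrays, 3 lower, and 7 overlapped. The share over all tested probe sets was not computed, so these counts are not read as a trait of the members. Both LAT and both SLA probe sets were among the 14. FYN 212486_s_at read 8.73 to 8.84 in the TCR experiment and 7.55 to 7.76 in the hairpin experiment, while FYN 216033_s_at read 8.02 to 8.10 and 9.16 to 9.99. PTPN22 divided in the same way, with 236539_at at 8.37 to 8.43 and 7.10 to 7.61 and 208010_s_at at 6.23 to 6.61 and 7.19 to 7.48. Vector, culture and RNA condition differ between the experiments together and cannot be told apart, and the levels were not tested across them.

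The other genes of the pathway were taken from 4 lists of 70 genes, of which 60 could be tested. After co-culture 0 of the 60 passed in either direction by limma, with a median change of -0.08. Before adjustment, p was under 0.05 for 1 higher and 5 lower genes, against 6.71% of all tested probe sets in both directions together. When the TCR groups were fitted alone, PTPN6, the phosphatase SHP-1, passed as higher and the phosphatase PTPN12 as lower. In that fit 1.41% of all tested probe sets passed. PTPN6 read 7.78 and 8.72 as group means (change 0.94, limma adjusted p = 0.113 in the fit of all groups and 0.00721 in the fit of 2). PTPN12, chosen after its values were seen, read 7.96 and 7.05 (change -0.91, limma adjusted p = 0.394 and 0.0176). PTPN6 is also abundant in myeloid cells. Of 13 myeloid markers, 5 passed as higher in the same arrays while MPO read lower, as given above. The part of that in the PTPN6 value was not tested.

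By list, the median change after co-culture was -0.05 over 4 other kinases and -0.11 over 19 other adaptors. It was -0.14 over 19 genes listed as other dampeners, PTPRC among them, and -0.05 over 18 genes of the branches below LAT and SLP-76. Over all tested probe sets it was 0.01. The phosphatase PTPRC (CD45), which controls LCK and is not only a dampener, read 8.34 and 7.73 (limma adjusted p = 0.280). Among the adaptors SHB read 7.27 and 6.79 and RHOH, which brings LCK and ZAP70 to the receptor, 10.28 and 9.93. The Tec-family kinase TXK read 7.63 and 7.32 and its relative TEC 5.99 and 6.10. Below LAT, the Ras activator RASGRP1 read 11.14 and 10.90 and BCL10, part of the route to NF-kB, 9.50 and 9.28.

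With the TLX1 hairpin 0 of the 60 passed by limma. Before adjustment 6 higher and 3 lower genes had p under 0.05, against 3.81% and 4.41% of all tested probe sets. The list medians were 0.02, -0.07, 0.03 and 0.09 in the same order. PRKCQ, the kinase PKC-theta that carries the signal towards NF-kB, read 8.84 with the control and 9.39 with the TLX1 hairpin (difference 0.56, limma adjusted p = 0.211), and RASGRP1 10.44 and 10.78. Among the adaptors, the 2 with the smallest p were SH2D2A (TSAd, which binds LCK), at 6.77 and 7.27, and CD2AP, at 9.61 and 10.05. Only 6 of the 19 tested adaptors were higher by sign. LAX1 and SIT1, chosen after their values were seen, were lower, at 8.38 and 7.72 and at 9.47 and 8.92. UBASH3B, the relative of UBASH3A, read 9.93 and 10.31, and PTPN12 5.95 and 4.82. TXK read 6.40 and 7.50 (difference 1.10, SE 0.59) and TEC 5.78 and 5.65. The fit of the 2 hairpin groups alone called 0 of the 60 as well, as it did for the members.

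**Figure D4:**
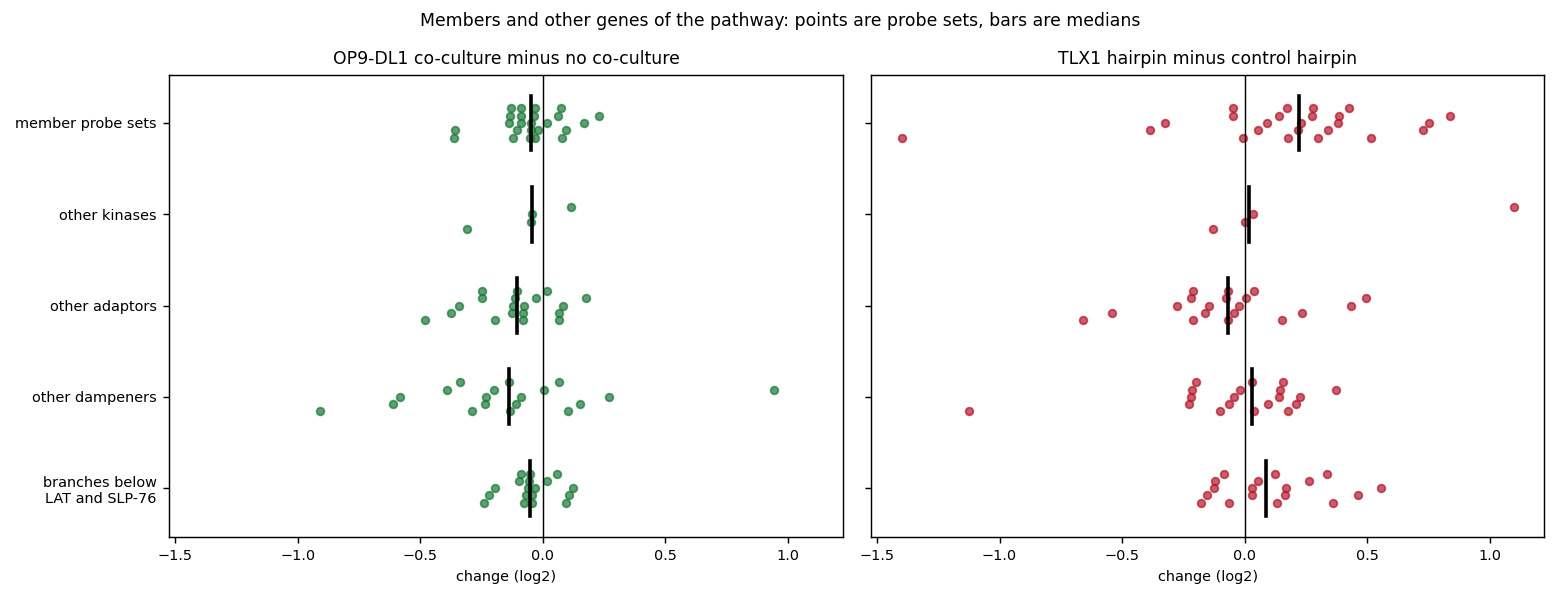
The x axis gives the log2 change and the rows the 24 member probe sets and the 4 lists of other pathway genes (1 probe set a gene); points are probe sets and black bars are medians, with the co-culture on the left and the TLX1 hairpin on the right. The member median is -0.05 on the left and 0.22 on the right, and the lists have medians between -0.14 and 0.09.

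For the member probe set with the largest change in each comparison, the genes of most similar pattern were sought over the 8 arrays after the mean of each experiment was subtracted. For SLA2 232234_at these were TOX3 (Pearson r = 0.991), COL9A3 (0.990), USE1 (0.989), ZNF787 (0.988) and DHPS (0.986), which differed by -0.53 to -0.19 with the TLX1 hairpin and did not pass. For FYN 243006_at they were YIPF6 (0.979), ASAP1-IT2 (0.976), PRKAB1 (0.971), ASTE1 (0.970) and UBR2 (0.964). Such values over 8 arrays in 4 groups describe these arrays, since they were the highest of all probe sets searched.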

How the data were processed

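Deposited were log2 values per probe set for 8 Affymetrix arrays; the submitters' processing notes name RMA, affy and R 2.9.0, and no further setting. Values ran from 2.15 to 14.3, with array medians of 5.29 to 5.30, which hides any change common to a whole array, and the number of arrays limits the precision. Gene names came from the platform annotation: 41097 probe sets had 1 symbol, 1801 several and 11777 none. Of those with 1 symbol, 41043 matched RefSeq by gene ID and 0 symbols changed.

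Titles of the samples gave the groups and replicate numbers. A probe set was kept where 2 or more of the 8 arrays read above their own median (30816). limma 3.58.1 in R 4.3.3 fitted 1 mean per group over all 4 groups (residual degrees of freedom 4, prior 3.81), with Benjamini-Hochberg adjustment over all kept probe sets and a threshold of 0.05; intervals are 95% and use the moderated standard error. The script was tested on simulated data. An exact permutation of 2 against 2 arrays cannot go below p = 0.333. The alternatives were the dim filter, the fit of 2 groups, array weights, an eBayes trend, 1 value per gene, cyclic loess, a replicate block and each array left out. For a list gene the brightest kept probe set on average was used. Named genes are the members, TLX1, the 2 list genes with the smallest p per list and comparison, and the 5 closest patterns, leaving out chromosome Y; others are said to be chosen later. Members, lists and tests were chosen with earlier results of these data known. NK, cytotoxic and B-cell markers had 0 calls in either comparison.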

Additional observations from a re-analysis of the deposited data

How the results depend on the processing

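In the co-culture comparison 0 members were called under every alternative run. The count over all probe sets was 151 as reported, 58 with the stricter dim filter (at least 4 arrays), 436 with only the 2 groups, 1371 with array weights and 81 with 1 probe set per gene, and 61 to 316 with 1 array left out. In the hairpin comparison it was 20 as reported, 0 with only the 2 groups or array weights, 12 with 1 probe set per gene and 10 with probe sets averaged per gene, and 0 to 3482 with 1 array left out, the highest without shRNA_control replicate 1. The member count was 1 as reported and 0 with only the 2 groups, array weights (SLA2 232234_at adjusted p = 0.183), the mean of probe sets or the replicate block, and 0 to 7 with 1 array left out. The causes were not tested. The SLA2 232234_at call was kept with the other 5 alternatives.

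Replicate numbers did not pair the arrays by any label, and the deviations of same-numbered arrays correlated at -0.06 in the TCR and 0.34 in the hairpin experiment. With the replicate block 159 and 15 probe sets were called, with 0 member calls in either comparison.

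Some changes turned their sign, and not all of these were small: FYN 210105_s_at and 216033_s_at differed by -0.32 and -0.39 with the TLX1 hairpin. For LCK 204890_s_at after co-culture the change was -0.0077 with cyclic loess, and for SLA the mean of probe sets gave 0.030. With 1 array left out, the co-culture changes ranged from -0.037 to 0.069 for LCK 204890_s_at, -0.37 to 0.16 for FYN 1559101_at, -0.045 to 0.23 for SLA 203760_s_at, -0.19 to 0.13 for SLA 203761_at, -0.079 to 0.036 for PTPN22 206060_s_at, -0.24 to 0.14 for PTPN22 208010_s_at and -0.069 to 0.21 for UBASH3A. The hairpin changes ranged from -0.078 to 0.19 for FYN 1559101_at, -0.69 to 0.041 for FYN 210105_s_at, -0.80 to 0.025 for FYN 216033_s_at, -0.22 to 0.13 for FYN 243006_at, -0.47 to 0.65 for LCP2 205269_at, -0.35 to 0.34 for LCP2 205270_s_at and -0.19 to 0.10 for PTPN22 208010_s_at. The other 17 member changes in each comparison kept their sign when any 1 array was left out.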
